A study of Mus musculus with 6 samples.

Results

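Mediator is a large protein complex that carries signals from transcription factors bound at enhancers to RNA polymerase II at promoters. Its subunit genes were picked out by symbol alone: Med followed by a number, with or without a final l, together with Cdk8, Cdk19 and Ccnc. This rule gave 33 genes of 46072 in the deposited tables, and all 33 passed the filter on low counts and were tested. RNA came from mouse embryos at the 4-cell stage, in 3 control libraries and 3 libraries from embryos injected at the zygote stage with siRNA against Son. Son encodes a protein of nuclear speckles that acts in pre-mRNA splicing. The labels give neither the strain nor the control injection, and they do not say whether embryos were pooled or came from separate litters. The p-values therefore measure only the spread between these libraries, which may be technical.

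The core of Mediator is described in parts. The head and middle modules meet RNA polymerase II, Med14 runs through the complex as its scaffold, and the tail is the main landing site for activators. Subunits 27 to 30 sit between head and tail. A separable kinase module of Cdk8 or its paralog Cdk19, cyclin C, Med12 and Med13 docks onto the core and, while docked, keeps polymerase from binding.

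Totals per library ran from 104634855 to 118865650 estimated counts. Levels are given as CPM, the depth-scaled count, with each library size multiplied by edgeR's TMM factor. Son had 249, 322 and 332 CPM in the controls and 41.03, 28.0 and 25.1 CPM after siRNA, so that 10.4% of the control mean was left. Its log2 fold change was -3.26 (edgeR adjusted p = 0.00991); without siRNA library 1, 2 or 3 the adjusted p was 0.0648, 0.0709 or 0.136, no longer past 0.05. All 7 early embryo markers were present, with a summed level of 946 to 1293 CPM in controls and 1104 to 1344 CPM after siRNA. The 9 cumulus and granulosa markers summed to between 0 and 1.197 CPM in controls and between 0.107 and 0.760 CPM after siRNA, with Inha, Fshr and Foxl2 at 0 in each library. The 7 sperm markers summed to 0.194 to 1.14 and 0.151 to 0.905 CPM (Odf1, Tnp2 and Smcp at 0). The 7 blood markers summed to 6.02 to 13.2 and 10.8 to 11.1 CPM (Ptprc, Hbb-bt and Hbb-bs at 0). Of these, Hba-a1 and Hba-a2 averaged at least 1 CPM over all libraries, and Hba-a1 was highest with 6.70 CPM.

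The messages for Mediator subunits were present at very unequal levels in 4-cell embryos. To compare genes with each other, CPM was divided by the length in kilobases of the longest coding transcript. On this scale Med10, a middle subunit, was highest in controls with 1363 CPM per kilobase, and Med6, a head subunit, followed with 947. They lay above 99.7% and 99.5% of the 13997 coding genes tested. Together they made up 65.3% of the summed level of all 33 members in controls and 65.6% after siRNA. At the other end stood Med12 of the kinase module, with 0.192 CPM per kilobase in controls, above 19.3% of coding genes. The ratio between the highest and the lowest member was 7086 in controls and 14042 after siRNA, values that rest on 57 to 255 estimated counts of Med12 per library. Without control 1, in which Med12 was highest, the ratio in controls was 13975. If 1 read pair is worth 4 such counts, an assumption from the values that no source states, Med12 rests on 14 to 64 read pairs per library, Med16 on 16 to 57 and Med24 on 89 to 389.

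Levels also differed by part of the complex. In controls the median member of the middle module had 49.3 CPM per kilobase, and that of subunits 27 to 30 had 61.1. The head stood at 20.3, the kinase module at 4.45 and the tail at 1.36. Of the 5 tail subunits only Med23, a docking site for several activators, was above 3 CPM per kilobase in controls, with 14.97. Med24 had 2.95, Med15 had 1.36, Med25 had 0.685 and Med16 had 0.434. The other 3 members among the top 5 were Med27 (277), Med21 (230) and Med4 (154), with longest coding transcripts of 1254, 814 and 1328 bases. Across the 33 members, level and transcript length had a Spearman rho of -0.52 in controls, against -0.20 across all coding genes tested. The level was itself divided by that length, so a negative rho is partly built in. It cannot show by itself that shorter messages were more abundant. Both rho values are descriptions over genes that share libraries. The order of the 2 highest members depended on the length used: over the merged exons of all transcripts Med6 had 693 and Med10 277. Of the longest Med10 transcript 90.9% overlaps Gm26819, which lies on the opposite strand and had 15.3 CPM in controls; these libraries carry no strand, so reads cannot be assigned to either gene with certainty.

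**Figure D1:**
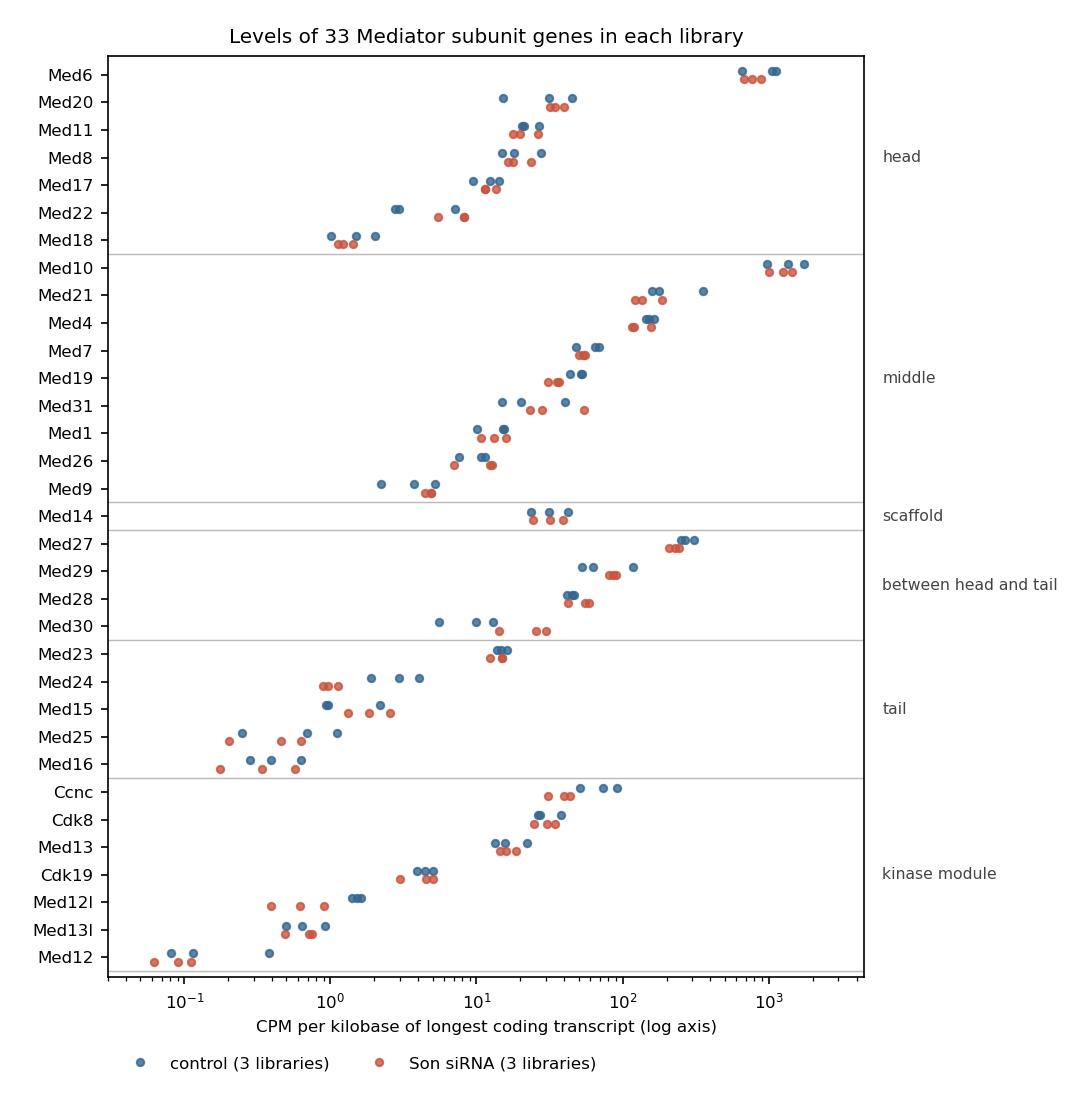
Level of each of the 33 Mediator genes (rows, grouped by part of the complex) in CPM per kilobase of the longest coding transcript on a log axis, with 1 point per library, blue for the 3 control and red for the 3 Son siRNA libraries. Med10 and Med6 lie highest, Med12 lowest, and the tail holds 4 of its 5 subunits below 3 CPM per kilobase in the control mean.

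The comparison of Son siRNA with control asked whether any of these messages differed in abundance. No member passed the threshold: at 0.05 on the adjusted p of edgeR's quasi-likelihood test 0 of 33 were lower and 0 higher, where 0.989% of the 17788 genes tested were called. CPM is scaled to each library, so a difference in cell number or in total RNA per embryo cannot be seen in it. At an unadjusted p under 0.05 there were 5 members, 15.2% of the 33, against 14.7% of all genes. These were Med24, Ccnc, Med12l and Med19 on the lower side and Med30 on the higher side. DESeq2's Wald test called 3 lower (Med24, Med12l and Ccnc) and 1 higher (Med30), where its share over all genes was 7.08%, made up of 4.74% lower and 2.33% higher. With limma-voom and group-specific variances 0 members were called (2.1% of all genes). For 6 members, 18.2%, the libraries of the groups were fully separate, against 23.7% of all genes tested (Med24, Ccnc, Med12l, Med19 and Med27 lower, Med30 higher). With both directions pooled, the shares of members were close to or below those of the whole table by edgeR's unadjusted p and by overlap. By direction they were uneven. Fully separate were 5 of 33 members on the lower side and 1 on the higher side, where 11.6% and 12.1% of all genes were. At an unadjusted p under 0.05, 4 members were lower and 1 higher, beside 1576 and 1046 of all 17788 genes. By DESeq2's calls, 3 lower and 1 higher, the share of members was above that of the whole table but rests on few genes.

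The median log2 fold change of the members lay near that of all genes tested, at -0.09 beside 0.02. Of the 33, 23 were below 0 with TMM scaling but 9 with total-count scaling. Below the median of all genes lay 24 with TMM, 23 with total counts and 17 without siRNA library 2. Total counts moved the medians to 0.22 for members and 0.31 for all genes, a difference between the medians of -0.10, beside -0.11 with TMM. This difference depended on single libraries: it was -0.0029 without siRNA library 2, with 17 of 33 members below 0, and -0.22 without control 2. With a replicate block or limma-voom it was -0.20. Fold changes ranged from -1.57 for Med24 to 1.29 for Med30. For 19 of the 33 the 95% interval lay within 2-fold in either direction, and the median half-width of the interval was 0.69 on the log2 scale.

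**Figure D2:**
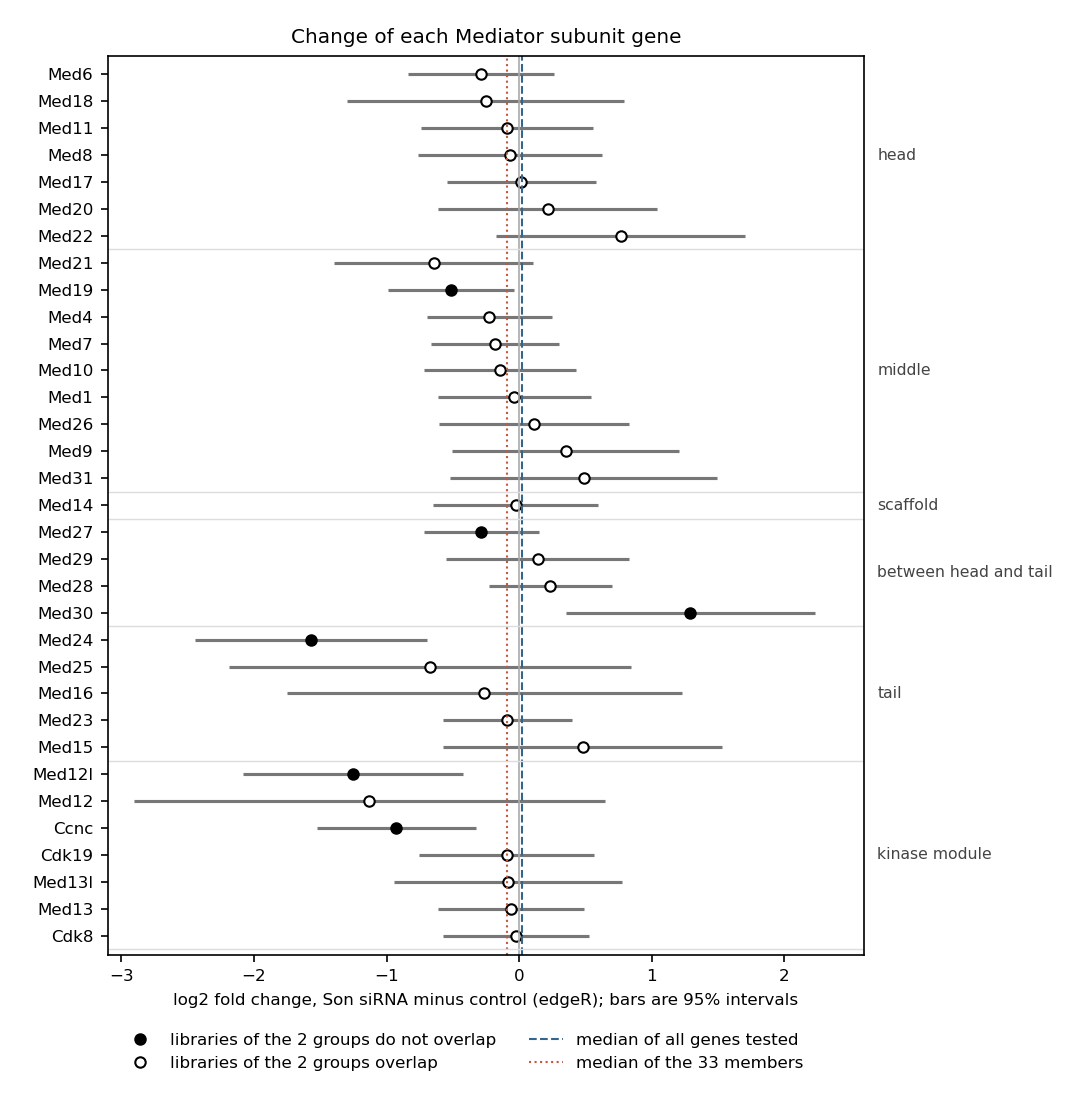
Log2 fold change of each member, Son siRNA minus control, with its 95% interval from edgeR; filled points mark members whose 3 control and 3 siRNA libraries do not overlap. The medians of the 33 members (-0.09) and of all genes tested (0.02) lie close together, and Med24, Med12l, Ccnc, Med19 and Med30 have intervals that leave out 0.

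Med14 (chromosome X, 12675369 to 12762073 on GRCm38), the scaffold that joins head, middle and tail, had 217, 165 and 294 CPM in controls. After siRNA it had 274, 169 and 222 CPM. The groups overlapped over most of their range, and the log2 fold change was -0.02 (95% interval -0.65 to 0.60).

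The 7 head subunits all had overlapping groups and none had an unadjusted p under 0.05. Med22, which pairs with Med11 in the head, had 10.4, 25.05 and 9.73 CPM in controls and 28.8, 19.0 and 28.9 CPM after siRNA. Its control library 2 sat inside the siRNA range while the other controls lay below it (edgeR adjusted p = 0.448, log2 0.76). Without control 2 the log2 fold change of Med22 was 1.35 (edgeR adjusted p = 0.0752). Med6, at the junction of head and middle, had 1113, 699 and 1195 CPM in controls and 713, 946 and 810 CPM after siRNA. Control 2 was again the odd one, lower than each siRNA library (log2 -0.28 with TMM and 0.04 with total counts, which is -0.31 and -0.28 against the median of all genes). Med20, the partner of Med18, had 31.1, 92.4 and 64.6 CPM against 65.1, 71.0 and 82.0 CPM after siRNA. Of the Med20 exonic bases 28.4% overlap other genes, among them Gm20517 on the same strand, so its count is uncertain. Its controls spanned a wider range than the siRNA libraries (log2 0.21, and -0.11 without control 1). The other head subunits, Med8, Med11, Med17 and Med18, had log2 fold changes between -0.25 and 0.02.

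The middle module held 1 subunit with fully separate groups. Med19 (chromosome 2, 84678402 to 84688215) had 108, 106.5 and 89.5 CPM in controls and 75.4, 64.0 and 73.6 CPM after siRNA. The highest siRNA library lay below the lowest control, with means of 101 ± 10.3 and 71.0 ± 6.13 CPM (SD, n = 3 each), a log2 fold change of -0.51 (SE 0.211) and an edgeR adjusted p of 0.302. Of its exonic bases 12.9% overlap Tmx2 and Zdhhc5 on the opposite strand. Tmx2 averaged 112 CPM in controls against 59.2 CPM after siRNA, and Zdhhc5 averaged 33.8 against 29.9 CPM. Of these genes only Zdhhc5 shares stretches of 100 bases with Med19. Med21, which forms a hinge with Med7, had 287, 130 and 145 CPM in controls and 98.4, 151 and 111 CPM after siRNA. Control 1 stood above the rest, and without it the log2 fold change of Med21 was -0.20 in place of -0.64. Med31 had 46.6, 17.3 and 23.5 CPM in controls and 27.0, 62.8 and 32.6 CPM after siRNA (log2 0.49, and 0.02 without siRNA library 2). Of its exonic bases 26.3% overlap a gene on the opposite strand. Control 1 and siRNA library 2 were the high libraries of their groups for Med31. The remaining middle subunits were Med1, which binds nuclear receptors, Med26, which brings in elongation factors, and Med4, Med7, Med9 and Med10. Their log2 fold changes ran from -0.22 for Med4 to 0.35 for Med9.

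Subunits 27 to 30 included the one member that DESeq2 called higher. Med30 (chromosome 15, 52712408 to 52730564), a subunit that budding yeast lacks, had 13.1, 10.03 and 5.54 CPM in controls. After siRNA it had 14.3, 30.0 and 25.9 CPM. Each siRNA library lay above each control, though siRNA library 1 did so narrowly. Means were 9.57 ± 3.81 and 23.4 ± 8.11 CPM (SD, n = 3 each), with a log2 fold change of 1.29 (SE 0.415) and an edgeR adjusted p of 0.188. DESeq2 gave an adjusted p of 0.0333; over 16 alternative settings it ran from 0.0333 to 0.512 and passed 0.05 in 1. Of 6 DESeq2 fits that left out 1 library, Med30 passed in 3 and did not without control 3 (0.0974), siRNA library 2 (0.233) or siRNA library 3 (0.242). Med30 shares no exonic base with another gene. Med27 lay on the other side, with 338, 388 and 315 CPM in controls and 262, 288 and 305 CPM after siRNA. Its groups were separate, yet the gap between them was small (log2 -0.28, edgeR adjusted p = 0.550). Against the median of all genes Med27 lay at -0.31 with TMM and -0.32 with total counts. Med28 had 206, 213 and 189 CPM against 194, 270 and 252 CPM, with overlapping groups (log2 0.24). Med29 had a log2 fold change of 0.14.

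In the tail, Med24 had the lowest unadjusted p of all members. Med24 (chromosome 11, 98704591 to 98729435) makes up a tail submodule with Med16 and Med23. It had 10.1, 13.7 and 6.44 CPM in controls. After siRNA it had 3.87, 3.04 and 3.29 CPM. The siRNA libraries were tightly grouped below the lowest control, whose group averaged 10.1 ± 3.64 CPM against 3.40 ± 0.427 CPM with siRNA (SD, n = 3 each). On the log2 scale the fold change was -1.57 (SE 0.387, 95% interval -2.44 to -0.69), for which edgeR gave an unadjusted p of 0.00287 and an adjusted p of 0.102. DESeq2 gave an adjusted p of 0.00259, and it passed 0.05 in each of 6 DESeq2 fits that left out 1 library, a check chosen after the data were seen. Over 16 alternative settings the adjusted p of Med24 ran from 0.00259 to 0.415, and the log2 fold change from -1.80 to -1.28. Estimated counts behind Med24 were 620 to 1557 per control library and 356 to 469 per siRNA library. The other subunits of that submodule had log2 fold changes of -0.09 for Med23 and -0.26 for Med16.

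Med15 and Med25, the tail subunits that activators such as SREBP and VP16 contact, were low and variable. Med15 had 3.18, 7.48 and 3.28 CPM in controls and 6.24, 4.48 and 8.72 CPM after siRNA. Med25 had 4.12, 2.55 and 0.914 CPM in controls and 1.70, 0.743 and 2.33 CPM after siRNA. Both overlapped between groups, with log2 fold changes of 0.48 (95% interval -0.57 to 1.53) and -0.67 (-2.18 to 0.85). The interval of Med15 left in a 2-fold higher level and that of Med25 a 2-fold lower one.

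In the kinase module, cyclin C and Med12l were lower in each siRNA library than in any control, while the levels of the 2 kinases overlapped. These are 2 of 7 members, where 11.6% of all genes tested were fully separate on the lower side. All 7 members had a fold change below 0 with TMM scaling and 3 of 7 with total counts, but all 7 lay below the median of all genes under both (0.02 and 0.31). Without siRNA library 2 that number was 4, without control 3 it was 5, and without control 2 or siRNA library 3 it was 6. With TMM, Cdk8, Cdk19, Med13 and Med13l lay only -0.05 to -0.12 from that median. The count is a description over genes that share libraries. Ccnc (chromosome 4, 21727701 to 21759922), the cyclin that activates Cdk8 and Cdk19, had 256, 178 and 320 CPM in controls and 107, 152 and 137 CPM after siRNA. The lowest control lay above the highest siRNA library, with means of 251 ± 71.1 and 132 ± 23.0 CPM (SD, n = 3 each). Its log2 fold change was -0.93 (SE 0.265) with an edgeR adjusted p of 0.140 and a DESeq2 adjusted p of 0.0337; 16 alternative settings gave 0.0337 to 0.483. Of 6 DESeq2 fits that left out 1 library, Ccnc passed in 1, the fit without control 2.

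Cdk8 had 77.9, 80.6 and 112 CPM in controls and 103, 73.6 and 89.9 CPM after siRNA. Cdk19 had 29.1, 22.7 and 25.8 CPM in controls and 29.2, 17.4 and 26.0 CPM after siRNA. Neither kinase separated the groups, with log2 fold changes of -0.02 (95% interval -0.58 to 0.53) and -0.10 (-0.75 to 0.56). With total counts the values of Cdk8 and Cdk19 were 0.30 and 0.23, beside 0.31 for the median of all genes, so both lay slightly below that median under either scaling.

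Med12l (chromosome 3, 59005825 to 59318682), the paralog of Med12, had 16.8, 17.9 and 15.5 CPM in controls and 6.80, 9.95 and 4.31 CPM after siRNA. The 3 controls lay close together and well above the siRNA libraries, at 16.8 ± 1.18 against 7.02 ± 2.83 CPM (SD, n = 3 each). Its fold change was -1.26 on the log2 scale (SE 0.367), at an edgeR adjusted p of 0.147 and a DESeq2 adjusted p of 0.0157; 16 alternative settings gave 0.0157 to 0.483. Med12l passed in 4 of 6 DESeq2 fits that left out 1 library. Of its exonic bases 17.3% overlap genes on the opposite strand, of which Igsf10 and P2ry12 had 0.214 and 0.345 CPM in controls. Med12, which activates the kinase, had 2.65, 0.563 and 0.789 CPM in controls and 0.776, 0.624 and 0.430 CPM after siRNA. Control 1 alone stood out for Med12, and without it the log2 fold change was -0.15 in place of -1.13.

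Med13, which tethers the kinase module to the core, had 165, 141 and 233 CPM in controls and 195, 168 and 152 CPM after siRNA. Med13l had 5.97, 8.58 and 4.63 CPM in controls and 6.59, 4.54 and 6.98 CPM after siRNA. Both genes overlapped between groups, with log2 fold changes of -0.06 and -0.08. With total counts these were 0.26 and 0.18, again slightly below the median of all genes (0.31).

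**Figure D3:**
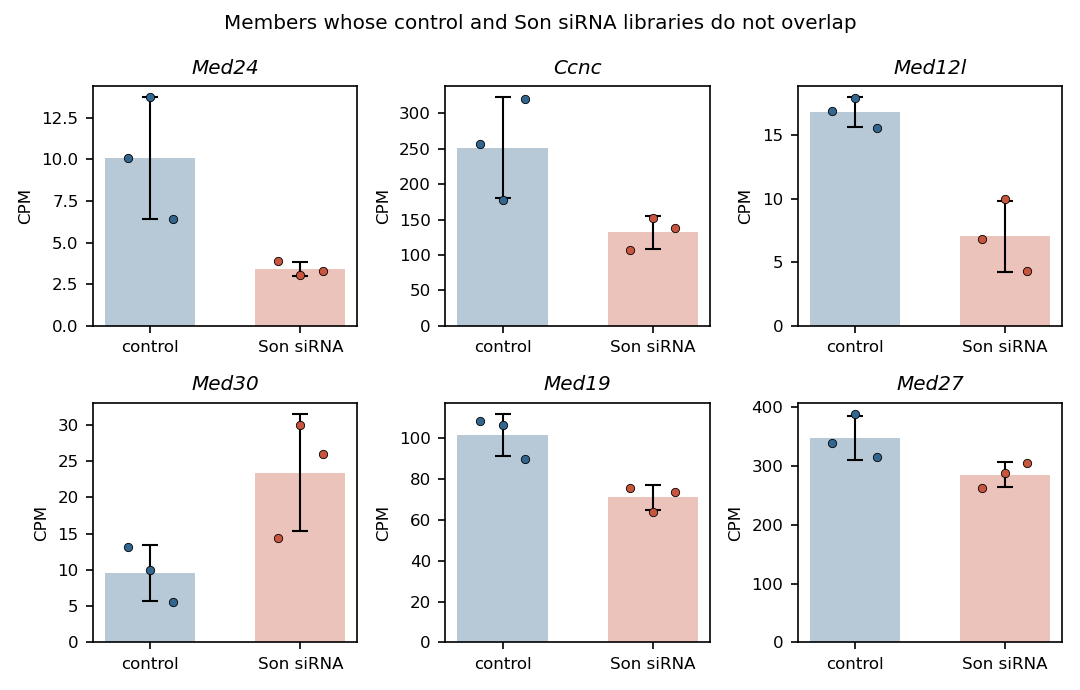
The 6 members whose control (blue) and Son siRNA (red) libraries do not overlap, in CPM, with 1 point per library, bars at the mean and error bars of 1 SD (n = 3 each). Med24, Ccnc, Med12l, Med19 and Med27 lie lower after siRNA and Med30 higher; none passed edgeR's adjusted threshold.

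Each of the paralog pairs of the kinase module had 1 member far above the other, in all 6 libraries. Per kilobase, Cdk8 made up 84.0%, 87.4% and 89.5% of the Cdk8 and Cdk19 sum in controls and 87.3%, 89.2% and 87.1% after siRNA. Med13 made up 95.8% ± 2.14 of its pair in controls and 96.1% ± 0.998 after siRNA (SD, n = 3 each). In the third pair the order was turned round: Med12 held 19.99%, 4.75% and 7.45% in controls and 15.3%, 9.04% and 13.7% after siRNA, so that Med12l was the main message of the pair. Over merged exons the share of Cdk8 was 67.2% in controls and 68.8% after siRNA. The shares overlapped between groups in all 3 pairs. Exact two-sided permutation tests over 20 assignments gave p = 0.9 for Cdk8, 0.8 for Med12 and 0.8 for Med13, each 0.9 after Benjamini-Hochberg adjustment over the 3 pairs; the smallest p this design allows is 0.1. The differences were 0.92, 1.94 and 0.34 percentage points, and each took both signs when 1 library was left out (-0.58 to 2.18, -1.04 to 6.57 and -0.79 to 1.33).

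The sequences below show how far paralogs can be told apart by their reads. They are the longest stretches that annotated transcripts of both genes of a pair have in common, written 5′ to 3′ from the GENCODE vM21 transcripts, with the identical bases in capitals and 10 bases on either side in lower case. All lie in coding exons (GRCm38).
Cdk8, exon 6, chr5:146286155-146286177, plus strand: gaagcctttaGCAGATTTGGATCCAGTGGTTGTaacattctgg
Cdk19, exon 6, chr10:40466685-40466707, plus strand: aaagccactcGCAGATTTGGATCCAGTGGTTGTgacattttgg
Med12, exon 43, chrX:101295968-101295991, plus strand: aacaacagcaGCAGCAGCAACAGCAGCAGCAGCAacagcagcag
Med12l, exon 38, chr3:59275950-59275973, plus strand: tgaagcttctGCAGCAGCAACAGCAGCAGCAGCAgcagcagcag
Med13, exon 3, chr11:86345986-86346005, minus strand: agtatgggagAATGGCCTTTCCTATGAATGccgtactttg
Med13l, exon 3, chr5:118671036-118671055, plus strand: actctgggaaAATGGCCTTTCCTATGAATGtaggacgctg
The longest shared run was 23 bases for Cdk8 and Cdk19, 24 bases for Med12 and Med12l, within a CAG-rich repeat, and 20 bases for Med13 and Med13l. No stretch of 100 bases was common to both members of a pair.

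**Figure D4:**
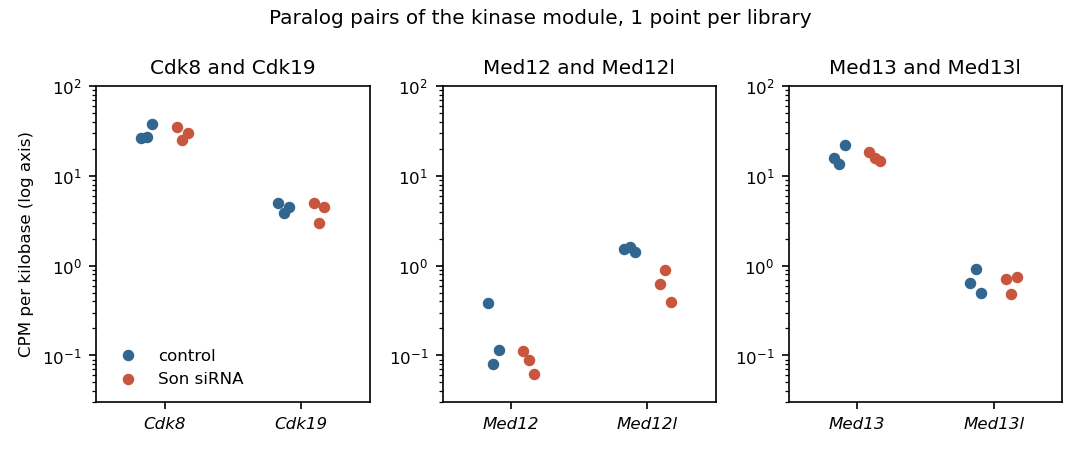
Level of the kinase module paralogs in CPM per kilobase of the longest coding transcript on a log axis, with 1 point per library, blue for control and red for Son siRNA. Cdk8 lies above Cdk19 and Med13 above Med13l in each library, while Med12l lies above Med12.

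In siRNA libraries 1 and 2, members also varied around their group mean in a way that followed transcript length. Deviations were taken as log2 (CPM + 0.5) minus the group mean, a description chosen after the data were seen. In siRNA library 1 they had a Spearman rho of 0.66 with the length of the longest coding transcript over the 33 members, and in siRNA library 2 of -0.51. Over all 13997 coding genes the values were 0.25 and -0.23, of the same sign and smaller in size. Of the 16 members shorter than 2997 bases, the median length, 3 lay above their group mean in siRNA library 1 and 12 in siRNA library 2. Of the 16 longer ones, 13 and 4 did. Deviations within a group of 3 sum to 0 for each gene, so the opposite values of these libraries are not separate observations. Control 1 had a rho of -0.27 over the members and -0.22 over all coding genes. For control 2 and control 3 the values were 0.09 and 0.14 over the members, and 0.13 and 0.11 over all coding genes. For siRNA library 3 they were 0.10 and 0.04. The part of this in the fold changes of single members was not tested.

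**Figure D5:**
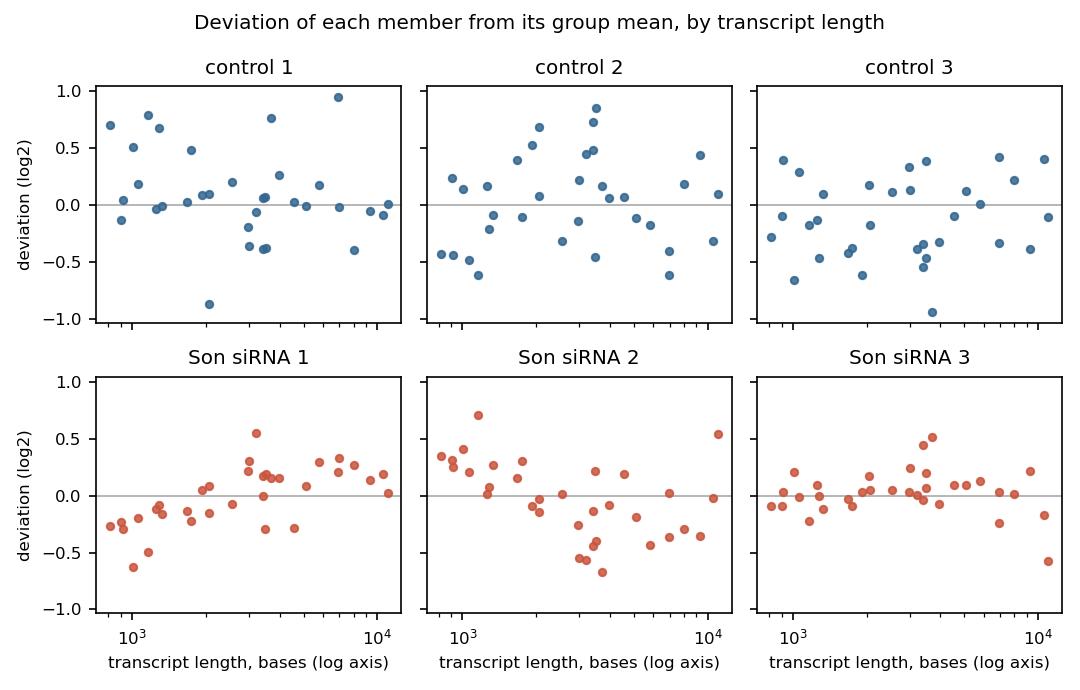
Deviation of each member from its group mean, in log2 (CPM + 0.5), against the length in bases of its longest coding transcript on a log axis, with 1 panel per library and 1 point per member. Short members lie low in Son siRNA library 1 and high in Son siRNA library 2, with Spearman rho of 0.66 and -0.51.

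Genes whose proteins act with Mediator gave the surrounding picture. The list held 40 genes of RNA polymerase II, the TFIIH kinase, P-TEFb, the super elongation complex, the little elongation complex, cohesin and its loader, coactivators, the general factors Tbp and Gtf2b, and the ubiquitin ligase subunit Fbxw7. All 40 were tested. By edgeR's adjusted p 0 were lower and 0 higher, where 0.899% and 0.0899% of all genes were. An unadjusted p under 0.05 was reached by 6, 15% of the list against 14.7% of all genes. Calls by DESeq2 numbered 3 lower and 3 higher, where 4.74% and 2.33% of all genes were called. Those by limma-voom numbered 2 lower, where 1.86% of all genes were. DESeq2 called Stag2, Smc1a and Polr2e lower, and limma-voom called Stag2 and Smc1a. The median log2 fold change of the list was -0.03. Stag2, a cohesin subunit, had 920, 586 and 702 CPM in controls and 363, 262 and 325 CPM after siRNA. The groups were far apart, at 736 ± 170 against 317 ± 50.7 CPM (SD, n = 3 each; log2 -1.22, SE 0.236), yet edgeR's adjusted p was 0.0554. When 1 library was left out it ran from 0.0360, without control 2, to 0.312, without siRNA library 3, and passed only in the former fit. The 16 alternative settings gave 0.000541 to 0.312 and passed in 5. Smc1a, another cohesin subunit, had 128, 107 and 121 CPM in controls and 64.0, 48.3 and 63.4 CPM after siRNA (edgeR adjusted p = 0.0738, log2 -1.02). For Smc1a DESeq2 gave an adjusted p of 0.00157 and limma-voom one of 0.0457. Its 16 alternative settings gave 0.00157 to 0.346 and passed in 2.

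Polr2e, a subunit that RNA polymerase II shares with polymerases I and III, had 340.0, 337 and 235 CPM in controls and 152, 178 and 159 CPM after siRNA (edgeR adjusted p = 0.0976, log2 -0.90). The groups were again separate. Ell3, an elongation factor, had 0.885, 0.916 and 0.426 CPM in controls and 4.49, 2.57 and 3.23 CPM after siRNA (edgeR adjusted p = 0.0978, log2 2.21). Of the Ell3 exonic bases 65.6% overlap Serinc4, so its count is uncertain.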

How the data were processed

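Smart-Seq2 libraries were built from lysates of embryos at the 4-cell stage, per the labels' protocols. HISAT2 2.0.5, StringTie 1.3.3b and GRCm38 are named in the submitters' processing notes; for the annotation release and the counting step, the processing is not given in the sources used here. Each library has 1 table, deposited by the authors, of whole-number estimated counts per library, not normalized, for 46072 genes; the values were used as they stand.

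Genes kept by filterByExpr were fitted with edgeR 4.0.16 (R 4.3.3; TMM, glmQLFit, glmQLFTest, Son siRNA minus control, no block), with Benjamini-Hochberg adjustment over all 17788 genes at 0.05. Intervals are 95%. DESeq2 1.42.0 and limma 3.58.1 (voom) were alternatives, with other scalings and filters, counts divided by 4, no mitochondrial genes, a replicate block and each library left out. Coordinates, lengths, overlaps and shared stretches of 100 bases come from GENCODE vM21, which matched 45223 identifiers and all 33 members. On simulated counts for Son siRNA against control (16681 genes) the fit found 79 of 100 genes with a 4-fold change. With an 8-fold change the fit found 100 of 100, and 10 of 189 calls were false. Changes under 4-fold were not simulated. The members' log2 fold changes ran from -1.57 to 1.29, all under 4-fold, so the recovery at their sizes is not known. The changed genes were drawn from those above a set mean level, so the recovery does not apply to low members such as Med12 and Med16. The simulation used the same dispersion in both groups. In the data the median SD of log2 CPM over 6079 genes was 0.424 in controls and 0.216 after siRNA.

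The members, gene lists and tests were chosen with earlier results of these data known. By the rule for named genes, values per library are given for Son, the kinase module, Med14, the 3 members with the smallest unadjusted p in each other part of the complex, any gene past the threshold, and the 4 partner genes with the smallest p. Reads amplified without molecular identifiers are not independent molecules.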

Additional observations from a re-analysis of the deposited data

How the results depend on the processing

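The number of members called by edgeR was 0 in each direction under all planned edgeR and limma-voom settings, leaving out each library included (0 to 0). DESeq2 called 3 lower and 1 higher. In DESeq2 fits without each library, added after the data were seen, 1 to 3 were lower and 0 to 2 higher, with Med22 the added member without control 2. The member median ran from -0.14 to -0.01 without each library, and was 0.22 with total counts, where the median of all genes moved up to 0.31 as well. Partner genes called lower numbered 1 with at least 50 counts in 3 libraries, 2 with limma-voom, 1 with counts divided by 4, 3 with DESeq2 and 0 to 1 without each library; those called higher numbered 3 with DESeq2 and 0 to 0 without each library.

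Over all genes, 160 lower and 16 higher became 35 and 7 with total counts, 91 and 9 without a filter, 245 and 43 with at least 50 counts, 823 and 405 with DESeq2, 330 and 43 with limma-voom, and 279 and 51 with counts divided by 4. Without each library the numbers were 0 to 231 lower and 0 to 84 higher; they were 0 and 0 without siRNA library 1, 2 or 3, with 1786, 2348 and 1733 genes at an unadjusted p under 0.05. With the replicate number as a block they were 0 and 0 (1997 genes at an unadjusted p under 0.05). The labels state no shared litter or day for same-numbered libraries, so these were not taken as pairs. Deviations of same-numbered libraries correlated at -0.27, -0.33 and 0.02, and those of differently numbered ones at -0.23 to 0.41. Deviations within a group sum to 0 for each gene, so these correlations cannot settle pairing. Why the counts of called genes shifted between settings was not tested.

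Signs depended on the scaling, with 23 of 33 members below 0 with TMM and 9 with total counts. With total counts, log2 fold changes were 0.0365 for Med6, 0.32 for Med14, 0.23 for Cdk19, 0.26 for Med13, 0.18 for Med13l and 0.30 for Cdk8, and with upper-quartile scaling Cdk8 had 0.0006. Med1, Med4, Med7, Med8, Med10, Med11, Med16 and Med23 also moved above 0 with total counts, to values from 0.0069 (Med16) to 0.26 (Med1). Total counts moved the median of all genes from 0.02 to 0.31, about the shift of these genes. Leaving out each library gave -0.11 to 0.61 for Med20, -0.20 to 0.22 for Med14, -0.25 to 0.086 for Cdk19, -0.21 to 0.17 for Med13, -0.27 to 0.19 for Med13l and -0.14 to 0.17 for Cdk8; the cause of these sign changes without a library was not tested. The siRNA-minus-control differences of the paralog shares moved by less than the spread between libraries with raw counts, with merged exon length (added later) and without each library. The shares themselves depended on the length used: Cdk8 held 86.95% of its pair in controls, 77.4% with raw counts and 67.2% over merged exons. Depth limits Med12, with 57 to 255 counts per library, and Med16, with 66 to 227.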

Other observations

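Within the partner list, genes with related roles had different values. Of the cohesin genes, Stag2 and Smc1a had log2 fold changes of -1.22 and -1.02, whereas Stag1 had 0.02, Rad21 -0.04 and Smc3 0.03. Whether these values differ from each other was not tested. Of the cyclins of P-TEFb, the kinase that releases paused polymerase, Ccnt2 had 54.3, 55.8 and 38.1 CPM in controls and 93.7, 87.3 and 111 CPM after siRNA (edgeR adjusted p = 0.104, log2 0.98). Ccnt1 had a log2 fold change of 0.14. Eaf1, a partner of the ELL elongation factors, had 27.3, 40.4 and 34.0 CPM in controls and 70.5, 60.3 and 66.5 CPM after siRNA (edgeR adjusted p = 0.111, log2 0.96). Ccnt2 and Eaf1 were the other partner genes that DESeq2 called higher, beside Ell3 (DESeq2 adjusted p = 0.00757 and 0.00788). Both were singled out after their values were seen.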
